A study of Homo sapiens with 3 samples.

Results

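Long intergenic non-coding RNA (lincRNA) genes were described here as a class of addresses for YBX1 on chromatin. In the deposited peak lists of a YBX1 ChIP-seq experiment, every autosomal peak was taken whose annotation names a gene called LINC followed by digits. This gave 1354 of 22874 peaks in replicate 1 and 1067 of 17285 in replicate 2. On the autosomes alone, 6.28% of the 21546 peaks of replicate 1 and 6.58% of the 16208 peaks of replicate 2 named such a gene. The 23 such peaks on the sex chromosomes in each list were left out. Together the lists named 423 LINC genes.

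A lincRNA gene is transcribed between protein-coding genes, and its transcript is spliced like a messenger RNA but mostly not translated. The name LINC with a number is given to such a gene when nothing is known from which to name it, so the class is one of position and not of function. YBX1, or YB-1, carries a cold-shock domain that takes up RNA and single-stranded or unwound DNA, and it has been described in transcription, splicing and translation. ChIP-seq recovers the DNA that is crosslinked to a protein directly or through RNA and other proteins, and does not tell these apart.

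The cells were HEL, an established human erythroleukaemia line with a mutated JAK2 gene, grown without drug and fixed with formaldehyde. There were 2 YBX1 immunoprecipitations and 1 input library of sheared chromatin, so both peak lists were called against 1 input and share its errors. Whether separate cultures gave the replicates is not in the labels, and no immunoprecipitation with a control antibody is among the libraries. The cell identity could not be checked from peak lists. The kept tags were 10010819 in replicate 1, 9926271 in replicate 2 and 74780414 in the input. The name of an alignment in the header of the replicate 2 list carries another number than its label, and the label was followed. The caller's fragment length, d, was 20 bp, shorter than the 36 bp tags, so peak widths and the folds at their summits do not measure the extent of binding.

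Most LINC names came from peaks beside the genes. For an intergenic peak the annotation lists the neighbouring genes, and 71.6% of the intergenic LINC peaks in replicate 1 and 74.4% in replicate 2 named several, up to 14 for 1 peak. A LINC gene was the sole gene named for 585 and 421 peaks. Most of the 423 names are still classed as lincRNA-type genes in the RefSeq table of GRCh38.p14, which gave 410 as lncRNA. It gave 10 as protein-coding, among them LINC00998 (now SMIM30), LINC00961 (SPAAR) and LINC00094 (BRD3OS), and 3 as transcribed pseudogenes, among them LINC01296 (DUXAP9, from a double homeobox gene). A LINC name in these lists is therefore a label of its time.

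The letters at the start sites are shown for 3 genes whose promoter was marked in both lists, because the sites bound elsewhere carry repeats that can be looked for in them. The YBX1 peaks near LINC genes lay mainly on arrays of the 4-base units TCCA (TGGA on the other strand) and TCTA (TAGA on the other strand). The windows run from 250 bases before to 50 bases after the start in RefSeq, build GRCh38.p14, 5′ to 3′ on the gene's strand (minus for LINC01277 and LINC01350, plus for LINC00955). Capitals mark every single copy of these 4 words.
LINC01277: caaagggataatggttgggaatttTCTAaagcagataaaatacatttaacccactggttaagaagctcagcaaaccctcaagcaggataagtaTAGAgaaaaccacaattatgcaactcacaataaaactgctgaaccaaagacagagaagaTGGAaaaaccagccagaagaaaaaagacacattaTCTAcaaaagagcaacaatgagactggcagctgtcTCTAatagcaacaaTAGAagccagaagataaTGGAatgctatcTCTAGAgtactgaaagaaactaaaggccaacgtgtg
LINC00955: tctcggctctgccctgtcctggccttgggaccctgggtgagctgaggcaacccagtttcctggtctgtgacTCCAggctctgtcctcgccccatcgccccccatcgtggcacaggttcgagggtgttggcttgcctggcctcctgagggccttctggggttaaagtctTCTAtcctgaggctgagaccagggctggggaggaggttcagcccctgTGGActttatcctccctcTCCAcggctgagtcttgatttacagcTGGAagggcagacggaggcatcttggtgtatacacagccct
LINC01350: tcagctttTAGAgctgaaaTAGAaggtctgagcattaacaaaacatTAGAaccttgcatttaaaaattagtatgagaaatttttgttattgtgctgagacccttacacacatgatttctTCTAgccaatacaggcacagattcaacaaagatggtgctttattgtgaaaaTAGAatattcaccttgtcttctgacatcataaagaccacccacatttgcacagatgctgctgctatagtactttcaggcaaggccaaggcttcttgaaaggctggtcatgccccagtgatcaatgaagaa

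LINC01277 had 9 single copies in its window, of which 7 were TCTA or TAGA, LINC00955 had 5 and LINC01350 had 5, against a median of 4 over all 35116 windows and of 5 over the 328 windows of 303 matched LINC genes. The other genes with a promoter region and a window held 0 (LINC01168), 3 (LINC00879 and LINC00887), 4 (LINC00635) and 6 (LINC01502). LINC01166 and LINC01167 had windows with 0 and with 7. The number of copies thus differed widely between these promoters. None of the 3 printed windows has a unit repeated head to tail. Of all windows, 1.07% held TCCATCCA or its reverse complement TGGATGGA, and 0.353% held TCTATCTA or TAGATAGA. Among the LINC windows the first pair was found in 3 (0.915%) and the second in 0. Of the 12 genes with a promoter region in both lists, 10 had a window, and 0 of them held either pair. LINC00316 and LINC01247 had no window. These letters say nothing of arrays outside the window, and peak coordinates are in hg19, so peaks were not placed on these sequences. The median GC content of the windows was 49.5% for LINC genes and 58.7% for all.

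YBX1 peaks at LINC genes were found in both replicates about as often as other peaks. Any overlap of 1 bp or more between the lists counted as finding a peak again. Of the replicate 1 LINC peaks, 753 (55.6%, 95% Wilson interval 53.0 to 58.2) were found in replicate 2, against a background of 53.8% over all autosomal peaks. Of the replicate 2 LINC peaks, 860 (80.6%, 78.1 to 82.9) were found in replicate 1, against a background of 77.5%. Peaks naming microRNA genes were found again at 57.3% and 79.1%, and peaks naming antisense genes at 54.8% and 82.2%. In each list the LINC value lay between those of the other classes of non-coding genes. The intervals treat peaks as independent, which neighbouring peaks of a cluster are not, and cover counting error only, and no test of the difference was made.

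As named by the annotation, LINC peaks lay outside genes more often than all autosomal peaks, and less often in introns. Intergenic peaks made up 1051 (77.6%) of LINC peaks in replicate 1, against 57.4% of all autosomal peaks, and 856 (80.2%) in replicate 2, against 58%. Intron peaks made up 262 (19.4%) against 38.3%, and 182 (17.1%) against 37.7%. Of the 17050 replicate 1 peaks that name any gene, 7870 were intergenic. Only intergenic peaks name several genes as a rule. When a LINC gene was the sole gene named, 53.0% of the regions found in both lists were intergenic. The 59.3% of all autosomal regions found in both lists is no like background for that share. Those regions were not limited to sole-gene peaks and include peaks that name no gene. A sole-gene share over all genes is not given here. Whether the higher intergenic share of LINC peaks comes from the naming was not tested. Promoter peaks were few, with 36 (2.66%, background 3.32%) in replicate 1 and 24 (2.25%, background 3.45%) in replicate 2. Exon peaks numbered 5 in each list (0.369% and 0.469%), against backgrounds of 0.951% and 0.913%.

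Intergenic and intron LINC peaks were found again at rates like those of all autosomal peaks there, while promoter and exon peaks were few. In replicate 1, 595 of the intergenic LINC peaks were found again (56.6%, background 55.1%), 136 of the intron peaks (51.9%, background 52.7%), 19 of the promoter peaks (52.8%, background 50.4%) and 3 of the exon peaks (background 31.7%). In replicate 2 the counts were 690 (80.6%, background 77.6%), 146 (80.2%, background 78.9%), 20 (83.3%, background 70.3%) and 4 (background 45.9%). The promoter share in replicate 2 had an interval of 64.1 to 93.3, which includes its background. The exon shares rest on 5 peaks each.

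**Figure D1:**
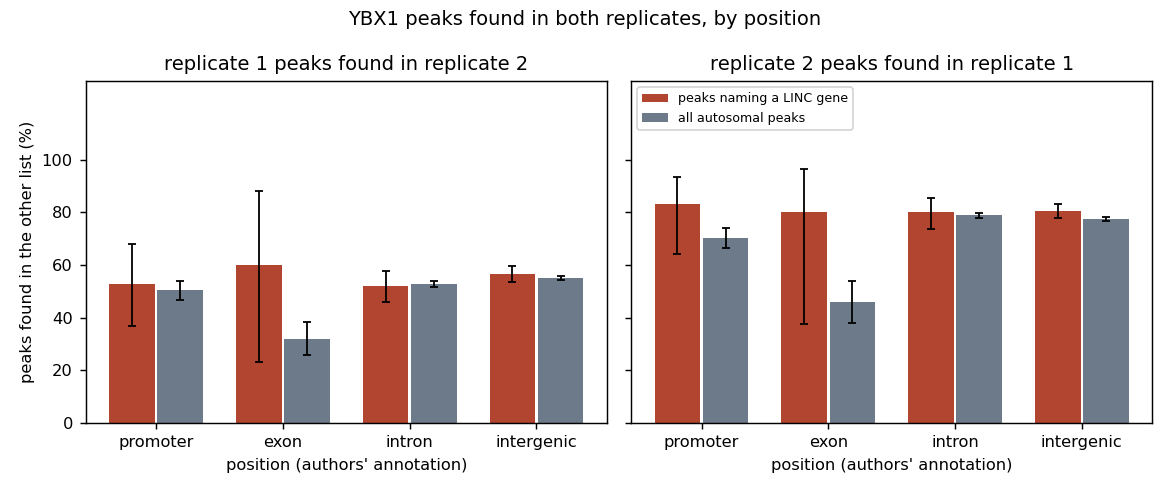
Percent of YBX1 peaks found in the other replicate (y axis) by the position the authors' annotation gives (x axis), for peaks naming a LINC gene (red) and all autosomal peaks (grey), with replicate 1 on the left and replicate 2 on the right; bars are shares and lines are 95% Wilson intervals. Red and grey bars are close for intron and intergenic peaks, while the promoter and exon bars of LINC peaks have wide intervals.

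The number of tags in a peak went with its being found again far more than its gene name did. The smallest peaks held 5 tags, and 21.7% of LINC peaks in replicate 1 and 20.0% in replicate 2 had no more than that. In replicate 1 the share found again was 19.4% at 5 tags, 30.4% at 6 to 7, 52.7% at 8 to 10, 77.7% at 11 to 20 and 95.7% at 21 to 50. Above 50 tags, 84 of 84 LINC peaks were found again. All autosomal peaks gave 18.4%, 30.7%, 49.2%, 78.8%, 96.3% and 99.1% over the same classes.

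Replicate 2 showed a gap at the smallest peaks. Of its 213 LINC peaks with 5 tags, 132 (62.0%, 55.3 to 68.2) were found in replicate 1, against 49.0% of all autosomal peaks with 5 tags. Some of these small peaks are pieces of a wider replicate 1 peak: 45 of the 132 overlapped a replicate 1 peak that overlapped several replicate 2 peaks. Without such peaks the shares were 51.8% for LINC and 40.3% for all. Every peak left out this way was one found again, so both shares had to fall. From 6 tags up the LINC shares in replicate 2 were 70.0%, 83.0%, 92.6%, 97.0% and 97.6%, against 68.8%, 83.9%, 94.2%, 97.2% and 98.3%.

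**Figure D2:**
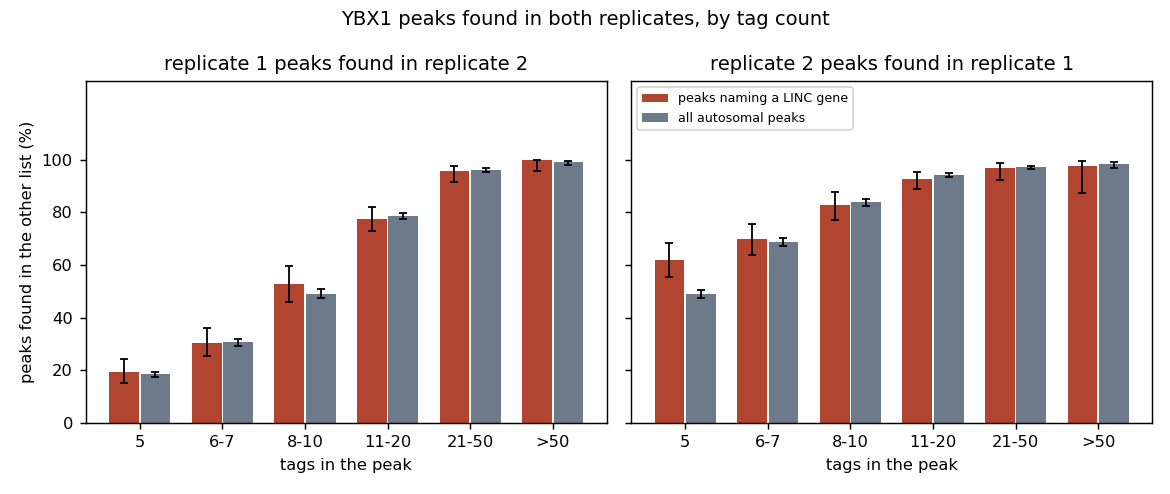
Percent of peaks found in the other replicate (y axis) by the number of tags in the peak (x axis), for LINC peaks (red) and all autosomal peaks (grey), with 95% Wilson intervals. Both colours climb together from 5 tags to over 50 tags, and the widest gap is at 5 tags in replicate 2, at 62.0% against 49.0%.

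LINC peaks had the same median height as all autosomal peaks. Their median fold enrichment over the local background, the authors' own value, was 53.9 in replicate 1 and 54.4 in replicate 2, and the medians over all autosomal peaks were the same. The median LINC peak held 9 tags in each list. In replicate 1, LINC peaks found again had a median of 69.6-fold and 15 tags, and those found once had 40.5-fold and 6 tags. In replicate 2 these medians were 54.4-fold and 10 tags against 40.7-fold and 6 tags. The input at many of these sites was at or below the genome-wide level, in 37.0% of LINC peaks in replicate 1 and 33.8% in replicate 2, so that their fold is a whole multiple of 1 tag over that level. The medians of 53.9 and 54.4 are such multiples, so their being equal does not show that the folds were alike. Over regions found in both lists the medians were 74.7 and 62.4 for LINC, and 76.9 and 65.5 for all autosomal ones.

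Simple tandem repeats, short units repeated head to tail, carried more LINC peaks than any other kind of sequence. They held 703 LINC peaks in replicate 1 (51.9%, background 49.6%) and 638 in replicate 2 (59.8%, background 57.5%). Of these, 70.0% and 90.9% were found in the other list, and the values over all autosomal tandem repeat peaks were 71.8% and 91.3%. LINC peaks with no repeat label, 358 and 223 of them, were found again at 39.9% and 68.6%. The same class over all autosomal peaks gave 35.1% and 57.7%.

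Transposon-derived sequence carried fewer. LINE elements, long retrotransposons, held 140 and 94 LINC peaks, of which 47.1% and 76.6% were found again. LTR elements, remnants of endogenous retroviruses, held 74 and 52, of which 23 and 26 were found again. SINE elements, which include the Alu family, held 30 and 14 (2.22% and 1.31% of LINC peaks), against 4.19% and 3.56% of all autosomal peaks. Over all autosomal peaks, those on LINE elements were found again at 38.6% and 69.6% and those on LTR elements at 38.7% and 61.2%.

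Of the repeat units, ATCC and AGAT led, each written here over all rotations and both strands. The ATCC family, which covers TCCA and also TGGA, had 306 LINC peaks in replicate 1 and 263 in replicate 2. The AGAT family, which covers TCTA and also TAGA, had 272 and 263. In replicate 1 all autosomal peaks had the other order, with 4678 on AGAT and 4327 on ATCC. AGAT peaks were found again more often, at 82.4% and 94.3%, than ATCC peaks, at 62.7% and 90.9%, and the same held over all autosomal peaks, at 84.6% and 95.6% against 63.1% and 90.0%. AGAT peaks near LINC genes were also higher in replicate 1, with a median of 92.6-fold against 67.4-fold. In replicate 2 these medians were 72.0-fold and 54.4-fold.

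These units were labelled in both of their written forms. The form shows how the array reads on the reference sequence, and the peaks have no strand. In replicate 1 the LINC peaks were split into 166 on TGGA and 140 on TCCA, and into 149 on TCTA and 123 on TAGA. In replicate 2 the split was 133 and 130, and 139 and 124. Smaller families were ACC with 41 and 35 peaks, of which 75.6% and 100% were found again, ACCATC with 29 and 27 (62.1% and 96.3%) and ATC with 21 and 18 (57.1% and 88.9%).

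Overlapping LINC peaks of both lists merged into 650 regions, of 10262 on the autosomes (6.33%). All 650 were given a LINC name in both lists, and 78 named 2 or more LINC genes. Tandem repeats held 437 of them (67.2%, 63.5 to 70.7; background 67.6%), no repeat 114, LINE elements 57 and LTR elements 18. The share on tandem repeats was 67.6% of the 510 intergenic regions, 66.9% of the 121 intron regions and 62.5% of the 16 promoter regions. For promoters the interval was 38.6 to 81.5, and all autosomal promoter regions gave 48.6%. The position was the same in both lists for every one of the 650 regions, while the repeat label differed in 84.

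By unit, AGAT held 217 of the 650 regions (33.4%) and ATCC 163 (25.1%). Over all autosomal regions these shares were 37.6% and 22.4%. Intergenic regions were 78.5% of the LINC regions, against a background of 59.3%. Region widths ran from 31 to 1868 bp with a median of 109 bp.

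Fold enrichment went together between the replicates over the LINC regions. Across the 650 regions the log2 folds had a Pearson r of 0.747 and a Spearman rho of 0.717, and r over all autosomal regions was 0.767. The regions share both libraries and the input, so this is a description. In the 218 regions where both folds rested on the genome-wide background, r was 0.609, and 0.586 over all such autosomal regions. It was 0.651 in the 437 regions on tandem repeats (0.676 over all autosomal ones) and 0.792 in the other 213 (0.801). The fold was higher in replicate 1 in 414 regions (63.7%), and the median log2 ratio of replicate 2 over replicate 1 was -0.26. Over all autosomal regions these were 61.7% and -0.24.

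**Figure D3:**
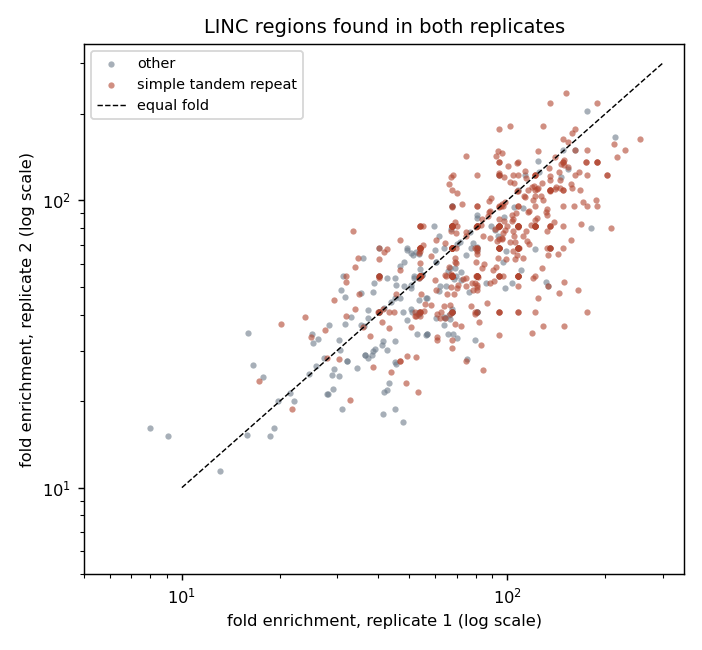
Fold enrichment in replicate 1 (x axis, log scale) and replicate 2 (y axis, log scale) of the 650 LINC regions, 1 point a region, in red where the region lies on a simple tandem repeat and grey elsewhere; the dashed line marks equal folds. More points lie below the line than above it, as 63.7% of these regions and 61.7% of all autosomal regions had the higher fold in replicate 1, and the highest points are mostly red.

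The strongest LINC regions were of the same kinds as the others. Regions were ranked by the lower of their 2 folds, each taken from the strongest peak of that list. Tags are given for the same peaks. In 23.4% of LINC regions a list held more than 1 peak, and there tags cannot be compared between the lists. The first 15 had a lower fold of 148 to 189 where the median LINC region had 54.4. Of the 15, 11 were on tandem repeats, where 67.2% of all LINC regions lay, and 3 had no repeat label. There were 9 intergenic, 4 intron, 1 promoter and 1 exon region, and 9 named 1 gene alone.

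The first of all was in an exon. LINC01510, now COMETT, lies beside the receptor tyrosine kinase gene MET, and its region at chr7:116240823-116241222 (hg19) lay on a TAGA array. It held 84 tags at 188.8-fold in replicate 1 and 57 tags at 217.6-fold in replicate 2. The next was a region with no repeat label near LINC00700 and MIR6072, at chr10:2035773-2035886, with 28 and 29 tags and folds of 175 and 204.

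LINC01249 gave 2 of the 15, both intergenic on chromosome 2. At chr2:4613517-4613813 it had 79 and 52 tags, at 213-fold and 166-fold, and the label was an L1MD3 element in replicate 1 and a TCTA array in replicate 2. At chr2:4779542-4779647, on a TCTA array, it had 24 and 37 tags, at 152-fold and 235-fold. Going by the strongest peaks, the second was the only one of the 15 with clearly more tags in replicate 2.

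Intron regions among the 15 were all on 4-base arrays. LINC00598 had the highest replicate 1 fold of any LINC peak, at chr13:41042260-41042972 on a TCCA array, with 155 and 95 tags at 256-fold and 163-fold. LINC01350 had 22 tags in each list at chr1:185571043-185571136 on a TCTA array, at 162-fold and 177-fold. LINC01494 (chr2:219765915-219766024, TCTA) had 27 and 20 tags, at 175-fold and 149.6-fold. LINC01006 (chr7:156281865-156282442, TAGA) had 128 and 85 tags, at 148-fold and 163-fold. In 3 of these 4 the strongest replicate 1 peak had more tags, but of the 3 only LINC01494 had 1 peak in each list. LINC00598 had 2 and 3 peaks and LINC01006 had 1 and 3, so tags cannot be compared at those regions.

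Other repeat units led at a few of the strongest sites. LINC00917 lies near FENDRR and FOXF1, a lincRNA and a transcription factor of lung and gut mesoderm, and its region at chr16:86452695-86453265 on an ATGGTG array had 200 and 114 tags, at 213-fold and 157-fold. LINC00896, in the gene-dense stretch that holds the microRNA processing gene DGCR8, had a CCA array at chr22:20151069-20151307 with 73 and 47 tags, at 229-fold and 149.6-fold. An ATG array near LINC00304, at chr16:89135169-89135829, had 230 and 117 tags, at 158-fold and 111-fold. A CCCA array near LINC00482, at chr17:79310198-79310281, had 12 and 6 tags, at 121-fold and 54.4-fold, and was the strongest of only 3 LINC regions of its unit.

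The remaining ones of the 15 were intergenic, apart from the LINC00316 promoter. LINC00342 (chr2:96425062-96425808, TGGA) had 114 and 49 tags in its strongest peaks, and LINC01093 near the transcription factor gene HELT (chr4:185887365-185888843, no repeat label) had 74 and 31. A narrow region named for LINC00473 and LINC00602, at chr6:166410975-166411044, had 16 tags in each list at 162-fold and 149.6-fold. LINC00051, on chromosome 8, had a TGGA array where replicate 1 had 1 peak of 216 tags and replicate 2 had 8 peaks, the strongest of 26 tags. So tag counts of single peaks cannot be compared there, while the folds were 158 and 171.

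Fold and tag number did not rank the peaks alike. The LINC peak with the most tags in each list, picked out after its values were seen, lay near LINC00322 and the salt-inducible kinase gene SIK1 at chr21:44755811-44757610. It had 1197 tags in replicate 1, at 135-fold, and 932 in replicate 2, at 108-fold. The next in replicate 1 was in an intron of LINC01019 on a TGG array, with 396 tags at 149-fold.

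Promoter regions found in both lists numbered 16 at 12 genes, 10 of them on tandem repeats. LINC00316 had the strongest, at chr21:46760050-46760674 on a TCCA array, with 214 and 176 tags, at 153-fold and 160-fold. A second region beside it, at chr21:46760682-46760874 and with no repeat label, had 32 and 21 tags, at 31.6-fold and 37.2-fold. The repeat-bearing part of this promoter was thus the higher in both lists.

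LINC01277 was the only one whose region was labelled as the start site itself and not as a repeat. At chr6:143359341-143359446 it had 22 tags at 181-fold in replicate 1 and 19 tags at 80.2-fold in replicate 2. Its start-site window, printed above, has 38.0% GC and no head-to-tail pair of the 4-base units. Tags differed little between the lists and the folds by more.

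LINC00955 had 3 promoter regions within 1 stretch, chr4:3579740-3580740, all on TCCA arrays. They held 5 and 8 tags (23.8-fold and 39.2-fold), 18 and 16 tags (66.4-fold and 58.6-fold) and 25 and 13 tags (86.9-fold and 43.8-fold). The order of the 3 by fold differed between the lists. LINC01502 had 2, also on TCCA, with 16 and 5 tags at chr9:138464235-138464353 and with 11 and 15 tags at chr9:138465110-138465201, so the stronger of the 2 was not the same in each list.

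A promoter shared by LINC01166, LINC01167 and LINC01168, at chr10:134776873-134777041, had a TCCA array with 23 and 8 tags, at 94.4-fold and 68.0-fold. LINC00887 had a TGGA array at chr3:194028858-194029164 with 55 and 25 tags, at 87.9-fold and 91.3-fold, and a weaker region next to it with 6 and 5. LINC00879 had a TCTA array at chr3:94658773-94658879 with 16 and 10 tags, at 94.4-fold and 81.6-fold. The higher region at each of these promoters lay on a 4-base array.

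LINC00635 had a TCTA array at chr3:107598941-107599075 with 11 and 6 tags, at 104-fold and 66.8-fold, and a second region with 7 and 5 tags. LINC01247 had 7 and 5 tags with no repeat label, at 53.4-fold and 40.4-fold. LINC01350 had 9 and 7 tags on an L1ME5 element, at 42.7-fold and 53.8-fold. The lowest fold in either list among the promoter regions was the 23.8 of LINC00955 given above.

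Exon regions were 3 in all. Besides LINC01510, the last exon of LINC00924, exon 6 of 6, held 2 of them with no repeat label, at chr15:96049871-96049989 and chr15:96050017-96050104. The first had 15 and 8 tags, at 50.9-fold and 40.8-fold, and the second had 15 and 9 tags, at 76.4-fold and 48.1-fold.

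Gene by gene, 399 LINC genes were named in replicate 1 and 359 in replicate 2, with 335 in both. A region found in both lists was named for 311 of the 423 (73.5%), inside the gene for 84 and only beside it for 227. There was 1 such region for 127 genes, 2 for 89 and 3 or more for 95, of which 35 had 5 or more. The 10 genes with most regions, of these 311, had 93 of the 650 (14.3%).

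The leaders were LINC00051 and LINC00955 with 12 regions each. LINC00638 and LINC01296 had 11, LINC00963 had 9, and LINC01093, LINC00111 and LINC01422 had 8. LINC00700 and LINC00982, the latter now PRDM16-DT beside the zinc finger gene PRDM16, had 7. LINC00824 also had 7, of which 3 were on tandem repeats, and fell outside the 10 because its strongest region was lower, at 93.9-fold in the weaker list against 95.8-fold for LINC00982. Tandem repeats held 12 of 12 regions at LINC00955 but 2 of 11 at LINC01296 and 1 of 8 at LINC01093. A high number of regions was therefore not limited to arrays.

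Strongest regions of these genes differed in size. The intron of LINC00111 had a TCCA array at chr21:43113952-43114676 with 238 and 188 tags, at 128-fold and 101-fold. LINC00963, together with LINC01503, had a CACCAT array at chr9:132172522-132172954 with 127 and 49 tags, at 105-fold and 62.7-fold. LINC00982 had a TCCA array at chr1:2905607-2906247 with 129 and 54 tags, at 95.8-fold in each list. LINC01422 had a CAT array at chr22:27404421-27404632 with 41 and 6 tags, at 132-fold and 68.0-fold. The regions of LINC00963 and LINC00982 held 1 peak in replicate 1 and 3 in replicate 2, and that of LINC01422 held 1 and 2. Tags of single peaks cannot be compared between the lists at these 3.

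**Figure D4:**
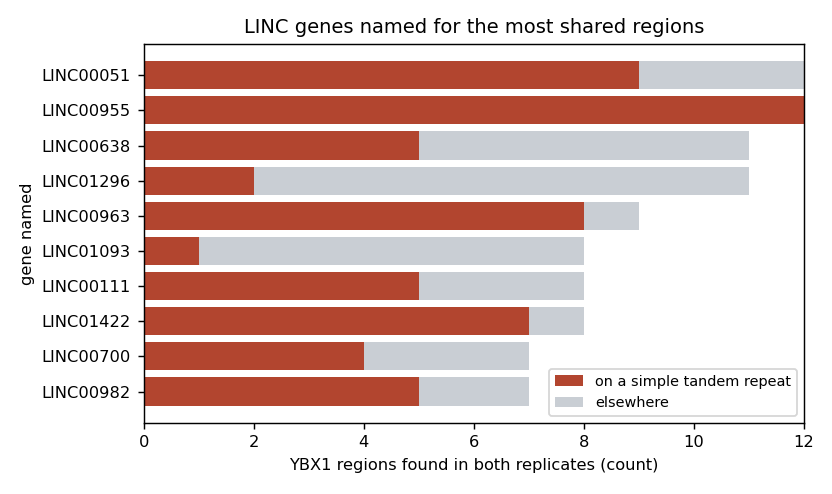
Number of YBX1 regions found in both replicates (x axis) for the 10 LINC genes named for most of them (y axis; LINC00824, tied with the last 2 at 7, is not drawn); red is the part on simple tandem repeats and grey the part elsewhere. LINC00955 is red throughout with 12 regions, while LINC01296 and LINC01093 are mostly grey.

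LINC00955 showed how such clusters are built. Its 28 peaks in replicate 1 and 30 in replicate 2 lay on chromosome 4 near LRPAP1 and DOK7, a receptor chaperone and an adaptor of the neuromuscular junction, with 11 and 8 inside the gene. They fell into separate groups of peaks, 5 in replicate 1 and 6 in replicate 2 when peaks within 500 bp were joined. Peaks held 5 to 112 tags in replicate 1 and 5 to 87 in replicate 2, and 24 and 28 lay on tandem repeats. Of them, 21 and 25 were found in the other list. The strongest, at chr4:3543065-3544017 on a TGGA array, had 68 and 87 tags, at 114-fold and 119.6-fold.

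LINC00638, now VESTAR, had 26 peaks in each list on chromosome 14, over 55.9 and 55.8 kb, near the kinase gene AKT1 and near CEP170B. Stretches labelled C-rich held 12 of them in replicate 1 and 14 in replicate 2, and CACCAT, CCA and TGGA arrays most of the others. All 26 replicate 2 peaks overlapped a replicate 1 peak, and 17 replicate 1 peaks overlapped a replicate 2 peak. The 9 found in replicate 1 alone held 5 to 8 tags. The strongest, at chr14:105325476-105325893, had 48 and 24 tags, at 94.4-fold and 81.6-fold.

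LINC01296 differed in its sequence. It had 33 peaks in replicate 1 and 15 in replicate 2, of which 30 and 13 had no repeat label. The position class put 24 and 11 in an intron, but the detailed annotation of these peaks read intergenic. Of the 33 and 15 peaks, 15 and 14 were found in the other list. Median folds over all 33 and 15 were 36.4 and 36.6. The gene is a copy of a pseudogene family, and tags from near-identical copies may be placed at any of them, so the place of these peaks is uncertain.

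LINC00665, on chromosome 19 among zinc finger genes such as ZNF565, ZNF146 and ZFP14, had the largest difference in number between the lists. Replicate 1 had 5 peaks there and replicate 2 had 24, and 2 of each overlapped. The folds were 7.97 to 18.7 in replicate 1 and 10.4 to 19.8 in replicate 2, all below the LINC medians, and no peak was on a tandem repeat. CpG islands were the label of 4 and 16 of them. The replicate 2 peaks fell into 13 groups with a median spacing of 2730.5 bp between the starts of neighbouring groups. Over the class, 19 replicate 2 LINC peaks were labelled CpG island, 16 here and 3 at LINC01250, and 0 of the 19 were found in replicate 1. Without LINC00665, 82.3% of replicate 2 LINC peaks were found in replicate 1.

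**Figure D5:**
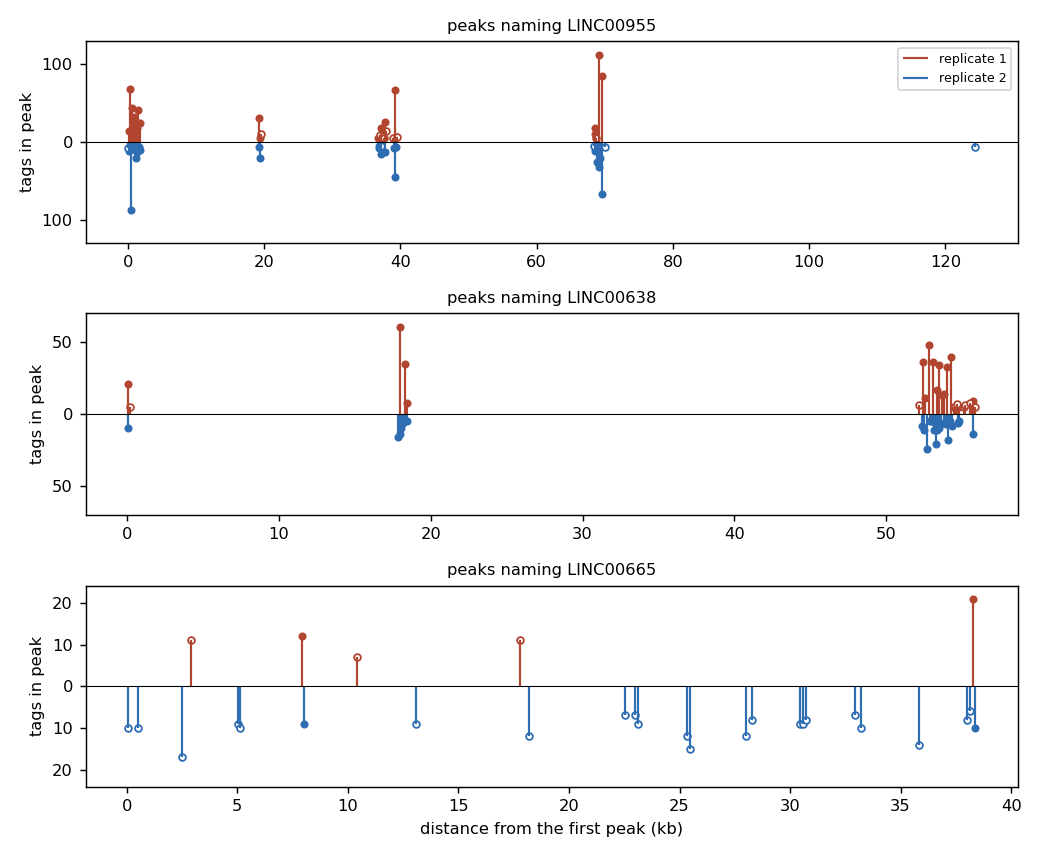
Tags in each peak (y axis, replicate 1 upward in red, replicate 2 downward in blue) by distance from the first peak in kb (x axis) for peaks naming LINC00955, LINC00638 and LINC00665; filled circles were found in the other list and open circles were not. Most circles are filled and face each other at LINC00955 and LINC00638, while at LINC00665 all but 2 of the 24 replicate 2 circles are open.

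A list of 17 LINC genes with a known product or role was looked up. Of them, 9 were named for a peak, and the share over all annotated LINC genes was not counted. A region found in both lists was named for 6 of these 9, and for 311 (73.5%) of all 423 named LINC genes. A peak within the gene was seen in neither list for the 9. So 0 of the 9 had a region found in both lists there, against 84 of the 423. The list of 17 does not hold every gene of known product. Outside it, LINC01314 (CTXND1), which RefSeq classes as protein-coding, had 3 peaks inside the gene in each list, and LINC00371 (C13orf42), of the same class, had 1 in each. No peak named LINC00116 (mitoregulin), LINC00948 (myoregulin), LINC00493 (SMIM26), LINC00478 (a microRNA host, MIR99AHG), LINC00261, LINC00511, LINC00340 (CASC15) or LINC01268.

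Among the small-protein genes, LINC00998 had a TAGA array beside it on chromosome 7 with 16 tags at 121-fold in replicate 1 and 10 tags at 40.8-fold in replicate 2. The replicate 1 peak was at chr7:112774287-112774368. LINC00961, which encodes a small protein of the lysosome, had 2 peaks of 7 tags in replicate 1 and 1 of 5 tags in replicate 2, and 0 of them overlapped.

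LINC00461, the host of the neural microRNA miR-9-2, had a TAGA array beside it at chr5:87800802-87800887 with 16 tags at 80.9-fold in replicate 1 and 14 tags at 95.2-fold in replicate 2. A small peak next to it had 5 tags in each list. LINC00649 had 9 peaks in replicate 1 and 6 in replicate 2 on TCTA arrays and their flanks on chromosome 21. The largest held 249 tags at 102-fold and 185 tags at 116-fold, and the sharpest 67 tags at 134-fold and 48 tags at 129.5-fold.

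LINC00899 had TGGA arrays at chr22:46378612-46378920, with 61 tags at 121-fold in replicate 1 and 45 tags at 81.6-fold in replicate 2. Further along lay a stretch labelled HAL1-2a_MD, a LINE element, with 43 tags in its largest replicate 1 peak and 10 in its largest replicate 2 peak. LINC00662 had 1 region, with 5 and 7 tags. LINC00473, a cAMP-responsive lincRNA, had besides the region above 6 peaks of 5 or 6 tags near chr6:166253121-166253749 in replicate 1, and 0 of them were found in replicate 2.

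LINC00152, better known as CYTOR, had 2 peaks in replicate 1 and 7 in replicate 2, all on CAGC arrays, and 0 overlapped. Their folds were 17.6 and 21.7 in replicate 1 and 13.2 to 68.0 in replicate 2. LINC00673 had 1 peak of 9 tags, on a TAGA array in replicate 2 alone.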

How the data were processed

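Each deposited list gives peaks called by MACS 1.4.2 per replicate against the same input, per the file headers, at a p-value cutoff of 1e-05, with 1 tag kept per position. Bowtie2, Trimmomatic 0.36, bcl2fastq 02.14.01.07, MACS 1.4 and the build hg19 stand in the submitters' processing notes. The authors filtered and annotated the lists, by rules not given in the sources used here. Tag counts per peak, the fold enrichment (a ratio of ChIP tags to the local background), a score and a false discovery rate in percent, 0 throughout, were deposited by the authors. The deposited score was read as 10 times the negative log10 of p, since its column name was lost. Position, genes and repeats are the authors' annotation.

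Computed here, with python 3.11.15 and pandas 2.3.3, were overlaps of at least 1 bp, merged regions with the class of the strongest replicate 1 peak, units grouped over rotations and strands, and 95% Wilson intervals. Folds within 0.006 of a whole multiple of 13.5 (replicate 1) or 13.6 (replicate 2) were taken as resting on the genome-wide background. The overlap code was tested on simulated data. No significance test was made, since the lists hold 1 condition. Genes named were the 15 strongest regions, every promoter or exon region, the 10 genes with most regions, a list of 17 genes of known role, the strongest region of each position and of the 6 commonest units, and the 5 strongest peaks found in each list alone. Members and lists were chosen with earlier results of these data known. The alternatives were a 50% overlap, a p of at most 1e-10, at least 10 tags, sole-gene peaks, peaks inside genes, a 100 bp gap, and leaving out each replicate or LINC00665. The 423 LINC names were matched by symbol to RefSeq genes (GRCh38.p14), 374 as current and 49 as older symbols. Start-site sequences were matched for 303 of them.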

Additional observations from a re-analysis of the deposited data

How the results depend on the processing

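Of 40 alternative values, 17 counted as the same as the reported one and 23 as moved. Shares had to stay within the interval and region counts within 1.5 times. The correlations, which have no interval, counted as moved under a limit not given here. The share of replicate 1 LINC peaks found in replicate 2 (55.6%) was 50.5% with a 50% overlap, 61.2% at a p of at most 1e-10, 60.6% with at least 10 tags, 52.5% for sole-gene peaks, 52.1% inside genes and 71.1% with peaks up to 100 bp apart. For replicate 2 (80.6%) the same settings gave 75.5%, 89.5%, 87.1%, 77.7%, 80.6% and 86.9%. The regions (650) fell to 391 at the stricter p, 333 with at least 10 tags, 283 for sole-gene peaks and 140 inside genes. A 50% overlap gave 663, because some regions came apart. The share on tandem repeats (67.2%) was 78.0% at the stricter p, 78.4% with at least 10 tags and 77.1% at the 100 bp gap. With either replicate left out, it was 51.9% to 59.8%, over single peaks and not regions. The intergenic share (78.5%) was 53.0% for sole-gene peaks. The 59.3% of all autosomal regions is no like background for that value, since it includes peaks naming no gene. The correlation of 0.747 was 0.609 on the genome-wide background and 0.638 at the stricter p. Leaving out LINC00665, chosen after seeing the data, moved none of the 5 values it was run on beyond these limits.

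No paired analysis was possible because there is 1 immunoprecipitated group and the input is a single library. Depth limits the small peaks: 21.7% and 20.0% of LINC peaks had 5 tags, where a missing partner in the other list cannot be told from absence.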

Other observations

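LINC peaks were spread unevenly over the chromosomes, as a share of all peaks there. On chromosome 13, 18.5% of the peaks named a LINC gene in both lists, on chromosome 14 it was 16.2% in replicate 1 and 17.8% in replicate 2, on chromosome 21 13.6% and 14.4%, and on chromosome 22 12.3% and 13.2%. The lowest shares were on chromosome 11, at 1.54% and 1.03%, and in replicate 2 the next lowest was chromosome 6, at 2.16%. How many LINC genes each chromosome holds in the annotation used was not counted, so these shares describe the names as much as the peaks.

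Some single-list peaks were as high as shared ones. The strongest found in replicate 1 alone was near LINC00837, on a TCTA array, with 13 tags at 135-fold. LINC00702, LINC00619 and LINC01484 had intron peaks of 17, 14 and 14 tags on TCCA or TGGA arrays, and LINC01020 an intergenic peak of 21 tags on an MLT2B3 element, each at 108-fold. In replicate 2 alone, LINC00944 had 10 tags at 95.2-fold on a TCTA array. LINC01450 and LINC01013 had 10 and 13 tags on ATCC-type arrays and LINC01370 had 7 on a HERVH element, each at 81.6-fold. LINC00173 had 12 tags at 77.9-fold on a TGGA array. Of these 10, 8 lay on ATCC or AGAT arrays. They were picked by their fold, and the share of these units over all single-list peaks is not given here. The count therefore does not describe single-list peaks as a set.

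The LINE element HAL1-2a_MD was the label of 43 LINC peaks in replicate 1 (3.18%) and 35 in replicate 2 (3.28%), near its shares of 3.43% and 3.44% of all autosomal peaks. Of these, 53.5% and 88.6% were found in the other list, against 59.1% and 91.9% of all autosomal peaks with that label. At the other end, 6 LINC peaks in replicate 1 and 8 in replicate 2 had folds below 10, at LINC00273, LINC00665 and LINC01262 in replicate 1 and at LINC00273 and LINC01250 in replicate 2. Of these, 2 and 0 were found in the other list, although they held a median of 12 and 20.5 tags.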
